A study of Mus musculus with 3 samples.

Results

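The distal part of mouse chromosome 1 carries 3 families of immune genes side by side, the Fc receptors, the SLAM receptors and the interferon-inducible *Ifi200* genes. All SNPs counted at chr1:170900000-174300000 (GRCm38) were taken, which gave 995 SNPs in 88 genes, out of 452304 SNPs in 30212 genes over all contigs. Of these SNPs, 386 lay in coding exons, 562 in untranslated exon sequence of protein-coding genes, 41 in exons of noncoding genes or pseudogenes and 6 outside the GENCODE vM21 model of their gene. The counts came from whole-exome sequencing of genomic DNA, in which captured exon fragments are read and assigned to a parental allele, so they report how much DNA of each allele was read and not how much each gene was expressed.

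The cells were descendants of haematopoietic stem cells (HSCs) of female F1 mice (C57BL/6 x CAST/EiJ), with a C57BL/6J (B6) mother and a CAST/EiJ (CAST) father, after transfer into irradiated F1 females. In library E6.2, 58000 B220+IgM+ B cells came from a recipient of 50 HSCs of donor 6 (polyclonal animal). In E6.43, 250000 CD4+CD8- thymocytes came from a recipient of 1 HSC of donor 6, and in E15.10, 177000 CD4+CD8- thymocytes came from a recipient of 1 HSC of donor 15 (monoclonal animals). All 3 libraries were of females; no library came from an unmanipulated animal, and each monoclonal library stands for a single stem cell. The sort used the Ly5.2 marker of the donor, and the cells the irradiated hosts still had were marked by Ly5.1. The labels place the B cells in the spleen and the study's methods in the bone marrow. There was 1 library per animal and no replicate, so each test compares libraries and not conditions. All intervals below are 95% intervals that cover counting error only. Those of allelic shares are Wilson intervals, and those of ratios between libraries were taken on the log scale from the counts of both libraries. E6.2 and E6.43 shared the donor, but their lineage, number of HSCs and library cannot be told apart. E6.43 and E15.10 shared the lineage and the number of HSCs, but donor and library cannot be told apart there. Where 3 values follow each other without names, they stand in the order E6.2, then E6.43, then E15.10.

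Fc receptors bind the constant part of antibodies. *Fcgr3* and *Fcgr4* are activating receptors for IgG, *Fcgr2b* is the inhibitory IgG receptor of B cells and myeloid cells, *Fcer1a* is the IgE-binding chain of mast cells and basophils, and *Fcrla*, *Fcrlb* and *Fcrl6* are Fc receptor-like genes. SLAM receptors are surface proteins of the CD2 group that recognise mostly the same receptor on a neighbouring cell and signal through small adaptors such as SAP. *Slamf1* encodes CD150 and *Cd48* encodes CD48, the pair of markers by which the transplanted HSCs were sorted (CD150+, CD48-). The *Ifi200* genes encode HIN-domain proteins, several of which bind DNA in the cytosol or nucleus, among them *Aim2*, the sensor of the AIM2 inflammasome. These families grew by tandem duplication, and the interval also holds olfactory receptor genes, the pentraxins *Crp*, *Apcs* and *Mptx2* and the intelectin *Itln1*.

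The B6 reference sequence around the SNPs the results turn on is given first, read 5′ to 3′ on the plus strand of GRCm38 (RefSeq assembly), with the B6 base of each counted SNP in capitals. The CAST bases are not given in the files used here. For the Fc receptors, coding windows are shown of the best covered coding SNP of *Fcgr4* (chr1:171020009-171020069) and *Fcgr3* (chr1:171057806-171057866), and of the *Fcgr2b* SNP with the widest range of allelic values (chr1:170963389-170963449).
Fcgr4: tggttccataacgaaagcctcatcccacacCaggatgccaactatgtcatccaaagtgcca
Fcgr3: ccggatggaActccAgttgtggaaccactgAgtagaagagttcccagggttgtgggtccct
Fcgr2b: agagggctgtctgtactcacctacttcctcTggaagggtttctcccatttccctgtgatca

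For the SLAM family, coding windows are shown of the best covered coding SNP of *Slamf1* (chr1:171774979-171775039), *Cd48* (chr1:171682094-171682134) and *Ly9* (chr1:171594002-171594062). For *Cd244a* (chr1:171580779-171580820) the coding SNP with the widest range of allelic values is shown, among those with at least 20 counts in E6.43 and E15.10.
Slamf1: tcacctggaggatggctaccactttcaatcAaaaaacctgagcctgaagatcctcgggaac
Cd48: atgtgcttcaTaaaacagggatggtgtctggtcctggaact
Ly9: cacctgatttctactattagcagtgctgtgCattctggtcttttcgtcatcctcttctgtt
Cd244a: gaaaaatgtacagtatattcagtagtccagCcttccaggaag

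For the *Ifi200* family, the only SNPs with counts of *Aim2* (chr1:173462108-173462168), *Ifi204* (chr1:173751874-173751934) and *Ifi202b* (chr1:173977265-173977298) are shown, all coding.
Aim2: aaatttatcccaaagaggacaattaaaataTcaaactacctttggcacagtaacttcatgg
Ifi204: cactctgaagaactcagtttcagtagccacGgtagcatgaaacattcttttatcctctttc
Ifi202b: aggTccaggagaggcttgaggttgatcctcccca

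*Mndal*, an *Ifi200* gene, shows how alike these genes are. A coding stretch of 151 bases that holds 5 counted *Mndal* SNPs (chr1:173862716-173862866, capitals in the first line) recurs without a difference in *Ifi211* (chr1:173901875-173902025) and *Ifi205* (chr1:174017489-174017639), and with 3 differences in *Ifi204* (chr1:173755862-173756012, differing bases in capitals). The *Ifi211* copy lies within the annotated span of *Mndal* as well.
Mndal: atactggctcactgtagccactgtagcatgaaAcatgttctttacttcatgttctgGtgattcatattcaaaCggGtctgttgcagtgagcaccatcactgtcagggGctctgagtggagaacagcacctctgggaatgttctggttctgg
Ifi211: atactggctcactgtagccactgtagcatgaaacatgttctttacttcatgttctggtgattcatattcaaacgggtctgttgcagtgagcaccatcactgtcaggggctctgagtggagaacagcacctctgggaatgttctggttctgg
Ifi205: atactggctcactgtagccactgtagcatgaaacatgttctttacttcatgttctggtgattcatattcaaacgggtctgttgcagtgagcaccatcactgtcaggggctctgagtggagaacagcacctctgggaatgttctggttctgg
Ifi204: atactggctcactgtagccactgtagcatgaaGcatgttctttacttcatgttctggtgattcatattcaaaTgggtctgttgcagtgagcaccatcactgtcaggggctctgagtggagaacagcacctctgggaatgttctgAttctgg

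The pseudogenes *Tma7-ps* (chr1:171711218-171711409) and *Gm9765* (chr1:171516844-171516919) and the intelectin gene *Itln1* (chr1:171531115-171531175) are shown because they share sequence with other genes and are described further down.
Tma7-ps: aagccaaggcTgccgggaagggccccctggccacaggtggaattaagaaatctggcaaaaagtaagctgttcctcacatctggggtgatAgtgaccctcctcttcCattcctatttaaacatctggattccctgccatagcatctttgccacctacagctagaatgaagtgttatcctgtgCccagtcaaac
Gm9765: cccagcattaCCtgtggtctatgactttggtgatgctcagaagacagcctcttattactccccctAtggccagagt
Itln1: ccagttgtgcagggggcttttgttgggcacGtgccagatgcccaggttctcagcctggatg

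Both parental alleles were read in every gene of the interval with at least 10 counts, in all 3 libraries, although in *Tma7-ps* at different SNPs. The measure was the allelic imbalance (AI), the B6 counts over all allelic counts. The interval received 58322, 39377 and 32882 counts, and its summed AI was 0.531, 0.526 and 0.526. The median AI of its genes was 0.533, 0.522 and 0.538, beside 0.538, 0.538 and 0.537 over all autosomal genes with at least 10 counts. Of 78 genes of the interval with at least 10 counts in E6.2, 69 had an AI from 0.4 to 0.6. For E6.43 it was 66 of 77, and for E15.10 it was 60 of 76. The remaining genes made up 11.5%, 14.3% and 21.1%, against 21.2%, 24.9% and 27.2% of all autosomal genes.

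Few genes reached the range that the study's methods treat as loss of heterozygosity (LOH), an AI under 0.25 or over 0.75. E6.2 had 1 such gene (1.28%, against 5.32% of all autosomal genes), E6.43 had 3 (3.90%, against 5.56%), and E15.10 had 3 (3.95%, against 5.24%). *Tma7-ps* was in this range in all 3 libraries. The others, named after their values were seen, each had few counts and were in the range in a single library. In E6.43 they were *Vsig8* with 3 B6 counts of 21 (AI 0.143, interval 0.0498 to 0.346) and *Ifi207* with 3 of 22 (0.136, 0.0475 to 0.333). In E15.10 they were *Ifi202b* with 11 of 13 (0.846, 0.578 to 0.957) and the olfactory receptor pseudogene *Olfr421-ps1* with 1 of 11 (0.0909, 0.0162 to 0.377). All these intervals reached beyond the limit of the range.

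**Figure D1:**
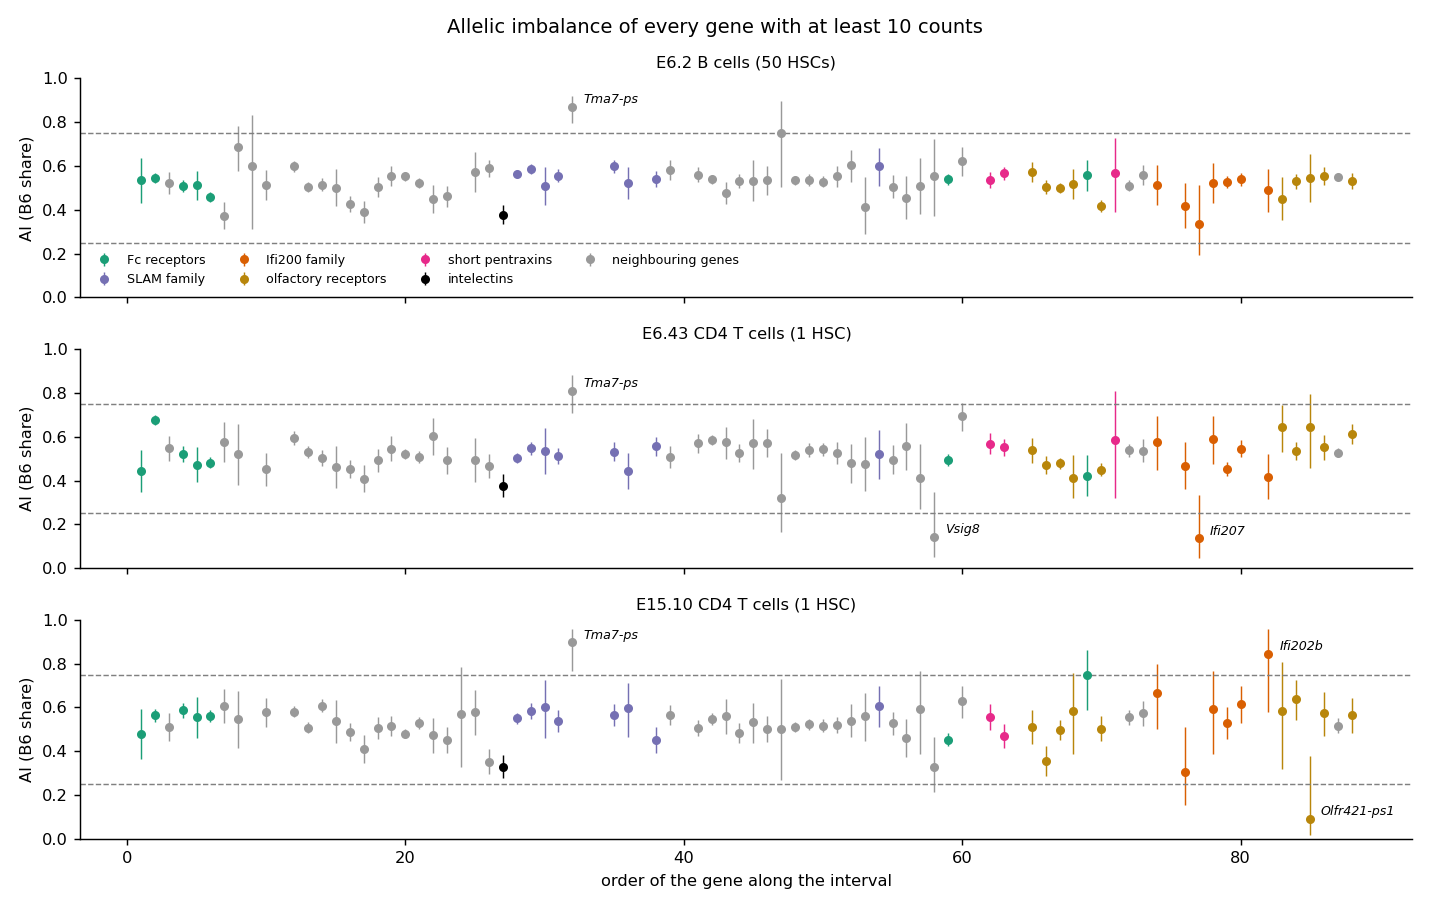
AI (vertical axis, B6 share of allelic counts) of every gene with at least 10 counts, in chromosome order (horizontal axis), in 1 panel per library, with 95% Wilson intervals and the limits of 0.25 and 0.75 as dashed lines. *Tma7-ps* stands above 0.75 in every panel, and the other genes outside the dashed lines carry 11 to 22 counts.

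Single SNPs gave the same picture. Of the 430 SNPs with at least 20 counts in every library, 217 (50.5%) had an AI from 0.4 to 0.6 in all 3, against 35.8% of 138659 such autosomal SNPs. No SNP had an AI under 0.1 or over 0.9 in every library, where 0.729% of the autosomal SNPs did. An AI outside 0.25 to 0.75 in any library was seen at 16 SNPs (3.72%, against 9.67% over the autosomes), and at none in all 3 (against 1.88%). These 16 included 4 neighbouring SNPs of *Fcrla*, 2 of *Fcgr2b*, 2 of *Ly9* and 1 of *Cd244a*. Counts were missing from all libraries at 348 SNPs (35.0%), against 44.6% over the autosomes.

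The Fc receptor genes were close to evenly covered by both alleles. Of the 8 protein-coding genes of this list, 7 held a SNP. *Fcer1g*, the shared signalling chain of the activating Fc receptors, held none. Summed over 91 SNPs the AI was 0.516 (interval 0.504 to 0.527), 0.549 (0.535 to 0.562) and 0.540 (0.525 to 0.554). All 7 genes lay between 0.4 and 0.6 in E6.2, with 1 exception each in E6.43 (*Fcrla*) and E15.10 (*Fcer1a*).

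*Fcgr3* gave 816 B6 counts of 1778 (AI 0.459), 633 of 1313 (0.482) and 682 of 1214 (0.562). E15.10 was the highest, and its interval (0.534 to 0.589) did not meet those of the other libraries (0.436 to 0.482 and 0.455 to 0.509). These intervals sum SNPs that share fragments. Over SNPs at least 300 bp apart it was 0.532 against 0.472 in E6.2 (adjusted p = 0.360, Fisher's exact test) and 0.480 in E6.43 (adjusted p = 0.490, Fisher's exact test), and neither difference passed. At the 3 *Fcgr3* SNPs in the window shown, which share reads, the AI was 0.442 to 0.454, 0.471 to 0.486 and 0.578 to 0.601. *Fcgr2b* gave 0.509 (683 of 1342), 0.522 (407 of 780) and 0.586 (431 of 735), again highest in E15.10. Its SNP at position 170963419 went the other way, with 23 B6 counts of 41, then 5 of 26 and 5 of 21. It was picked for its wide range and rests on few counts. At the untranslated position 170969388 of the same gene the B6 counts were 6 of 27, 7 of 20 and 9 of 24. There all libraries leaned to CAST, on too few counts to rank them. *Fcgr4*, counted at a single SNP, gave 0.511 (112 of 219), 0.472 (67 of 142) and 0.557 (59 of 106), and its intervals overlapped. Parts of *Fcgr2b* and *Fcgr3* recur in each other, and 5 of the 91 Fc receptor SNPs lay in such near-identical stretches.

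*Fcrla*, which encodes an intracellular Fc receptor-like protein of B cells, had the largest departure among the well covered genes of the list. Its AI was 0.546 (1146 of 2100), 0.678 (1093 of 1611) and 0.564 (602 of 1068). E6.43 stood apart, with an interval of 0.655 to 0.701 that did not meet those of E6.2 (0.524 to 0.567) and E15.10 (0.534 to 0.593). Of the 15 SNPs with at least 20 counts in both E6.43 and E6.2, 13 had the higher AI in E6.43. The values changed along the gene, and neighbouring SNPs lie on the same fragments. In E6.43 the AI was 0.808 at position 170918026, which is untranslated, 0.656 at the coding position 170918349 and 0.462 at the coding position 170921717. In E6.2 the same positions gave 0.75, 0.485 and 0.524. Over SNPs at least 300 bp apart the gene gave 0.609 in E6.43 and 0.511 in E6.2, a difference of 0.0979 (SE 0.0335) with an adjusted p of 0.151 (Fisher's exact test, Benjamini-Hochberg adjustment), and did not pass the threshold.

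**Figure D2:**
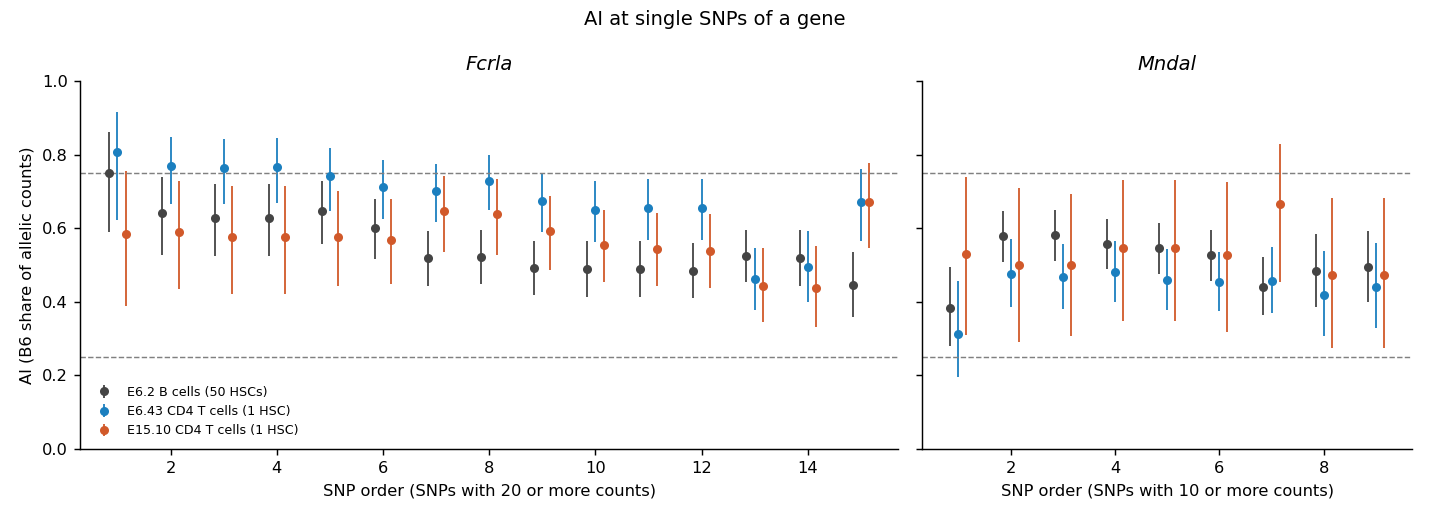
AI (vertical axis, with 95% Wilson intervals) at single SNPs of *Fcrla* (left, 15 SNPs with at least 20 counts in every library) and *Mndal* (right, 9 SNPs with at least 10), in chromosome order, in 3 libraries. E6.43 lies above E6.2 at 13 *Fcrla* SNPs, and the *Mndal* SNPs stay between 0.311 and 0.667.

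*Fcrl6* gave 0.539 (899 of 1667), 0.494 (602 of 1218) and 0.453 (487 of 1074), in the opposite order to *Fcgr3* with all SNPs summed. Over SNPs at least 300 bp apart it gave 0.543, 0.481 and 0.497, and E6.43 was the lowest. No pair of libraries passed there (Fisher's exact test, lowest adjusted p = 0.396, for E6.43 against E6.2). *Fcrlb* had 84, 102 and 69 counts with an AI of 0.536, 0.441 and 0.478, and its intervals overlapped. *Fcer1a*, which lies apart from the others among olfactory receptor genes, gave 103 of 185 (0.557), 42 of 100 (0.420) and 27 of 36 in E15.10. The last value is an AI of exactly 0.75, the upper limit of the LOH range, with an interval of 0.589 to 0.862. Its highest and lowest libraries, E15.10 and E6.43, had intervals that did not meet, and over SNPs at least 300 bp apart they differed with an adjusted p of 0.0953 by Fisher's exact test.

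Summed over its SNPs the SLAM family leaned slightly to B6, as the median autosomal gene did. Of 9 protein-coding genes, 8 held a SNP, and *Slamf8* held none. Over 134 SNPs the AI was 0.569 (interval 0.558 to 0.579), 0.520 (0.506 to 0.533) and 0.554 (0.537 to 0.570). The intervals of E6.2 and E6.43 did not meet, but they sum SNPs that share fragments and are too narrow. Over SNPs at least 300 bp apart, no SLAM gene passed between E6.43 and E6.2 (Fisher's exact test, adjusted p = 0.274 for *Cd244a*, the lowest). All 8 genes had an AI from 0.4 to 0.6 in E6.2 and E6.43, and 7 had in E15.10, where *Slamf9* stood at 0.608 (62 of 102).

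*Slamf1* (CD150) gave 568 B6 counts of 949 (AI 0.599), 279 of 525 (0.531) and 210 of 370 (0.568). *Cd48* gave 613 of 1103 (0.556), 398 of 778 (0.512) and 204 of 380 (0.537). With all SNPs summed, the order of the libraries was E6.2, E15.10, E6.43 for both sorting markers. The intervals of all libraries overlapped in each gene, so the libraries could not be ranked. Over SNPs at least 300 bp apart *Slamf1* kept this order, but *Cd48* was lowest in E15.10 (0.481). At the *Slamf1* SNP shown above the values were 94 of 167 (0.563), 50 of 96 (0.521) and 41 of 78 (0.526).

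*Cd244a*, which encodes the CD48 receptor of natural killer cells, had the most SNPs of any gene of the interval, 57. It gave 1945 of 3446 (0.564), 1060 of 2110 (0.502) and 890 of 1616 (0.551). E6.43 was the lowest, and it was below E6.2 at 19 of the 24 SNPs with at least 20 counts in both. Over SNPs at least 300 bp apart the difference between E6.43 and E6.2 was -0.0560 (SE 0.0236, adjusted p = 0.274, Fisher's exact test). At the *Cd244a* SNP shown the AI was 0.778 (28 of 36), 0.621 (18 of 29) and 0.95 (19 of 20). This SNP was picked for its wide range and rests on few counts. The median AI of the *Cd244a* SNPs with at least 20 counts was 0.567 in E15.10.

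*Ly9* gave 1022 of 1739 (0.588), 551 of 1007 (0.547) and 454 of 777 (0.584). At 2 neighbouring coding SNPs, at positions 171605016 and 171605028, its AI was 0.684 and 0.696 in E6.2, then 0.698 and 0.689, then 0.774 and 0.768 in E15.10, and at the SNP shown above 0.613, 0.509 and 0.690. *Slamf6* gave 0.539 (386 of 716), 0.556 (289 of 520) and 0.450 (122 of 271). *Cd84* gave 0.522 (93 of 178), 0.441 (60 of 136) and 0.596 (34 of 57). *Slamf7* gave 0.508 (64 of 126), 0.537 (44 of 82) and 0.60 (30 of 50). For *Slamf7* and *Slamf9* all 3 intervals overlapped.

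**Figure D3:**
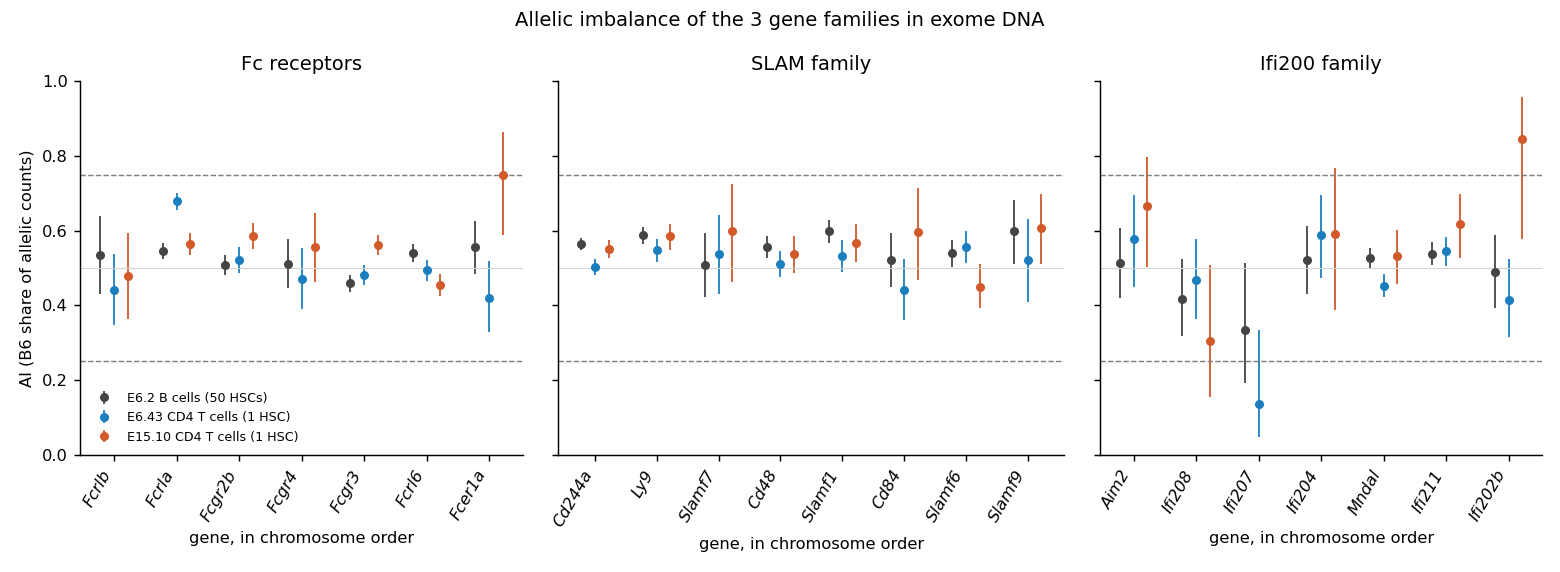
AI (vertical axis, with 95% Wilson intervals) of the Fc receptor, SLAM and *Ifi200* genes with at least 10 counts in E6.2, in chromosome order, in each library with at least 10 counts. Most points lie between 0.4 and 0.6, and the intervals are widest for the *Ifi200* genes in E15.10.

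The *Ifi200* family was the least measurable. Of 13 protein-coding genes, 9 held a SNP. *Ifi206*, *Ifi214*, *Ifi209* and *Ifi205* held none, and the only SNP of *Ifi213* had no counts. Their exons carried 0.687 SNPs per kb, against 5.56 for the Fc receptors, 3.22 for the SLAM family, 0.960 for the olfactory receptors and 3.15 for the neighbouring genes. Exon sequence was cut into windows of 151 bases, and a window was called repeated when at least 95% identical sequence was found elsewhere in the genome over at least 90% of its length. By this measure 65.3% of the *Ifi200* exon windows were repeated, 64.7% within the interval itself, against 4.07% for the Fc receptors, 5.19% for the SLAM family, 5.26% for the olfactory receptors and 0.834% for the neighbouring genes. These shares describe the B6 reference, and the part of sequence copies in the low density of SNPs was not tested. Of the 38 *Ifi200* SNPs, 21 (55.3%) lay at the centre of a repeated window. Over the interval it was 5.53% of SNPs, and over the rest of chromosome 1 it was 4.96%.

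**Figure D4:**
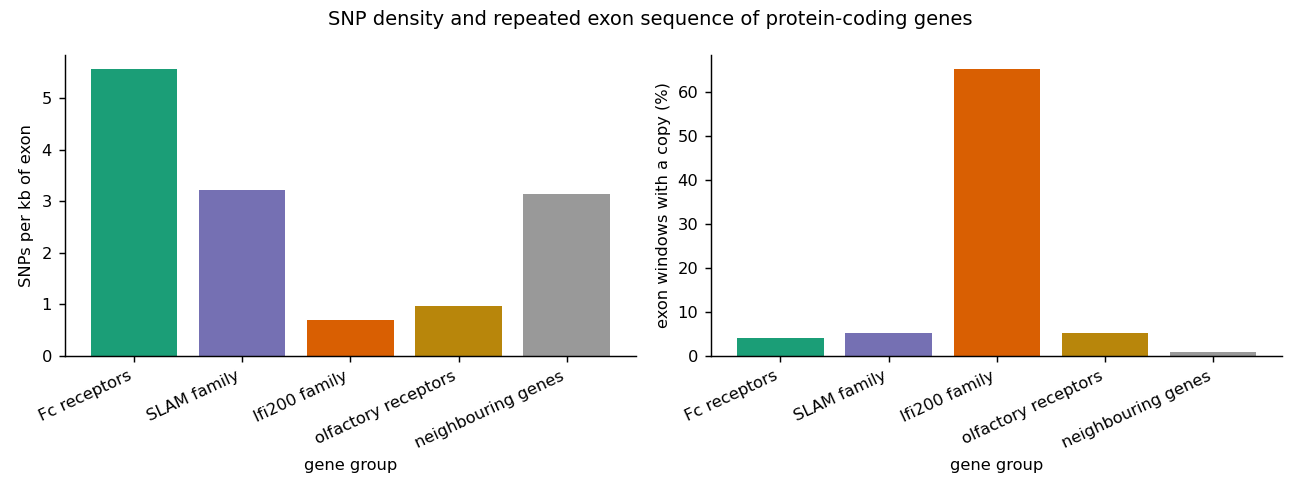
SNPs per kb of exon (left) and percentage of exon windows of 151 bases with a copy of at least 95% identity elsewhere in the genome (right), for the protein-coding genes of 5 groups. The *Ifi200* bar is the lowest on the left (0.687) and the highest on the right (65.3%).

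Summed over its SNPs the *Ifi200* family had an AI of 0.523 (interval 0.504 to 0.541), 0.488 (0.466 to 0.511) and 0.568 (0.519 to 0.616). *Mndal* gave 730 of 1388 (0.526), 422 of 932 (0.453) and 95 of 179 (0.531). At position 173862791, the centre of the repeated stretch shown above, the values were 108 of 198 (0.545), 62 of 135 (0.459) and 12 of 22 (0.545). At position 173865405 of the same gene, where the window was not repeated, they were 49 of 99 (0.495), 30 of 68 (0.441) and 9 of 19 (0.474). Over all 9 *Mndal* SNPs the AI ran from 0.311 to 0.667. *Ifi211*, all 5 of whose SNPs lay in repeated windows, gave 540 of 1003 (0.538), 347 of 637 (0.545) and 74 of 120 (0.617).

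*Aim2* gave 55 of 107 (0.514), 34 of 59 (0.576) and 24 of 36 (0.667). *Ifi204* gave 59 of 113 (0.522), 43 of 73 (0.589) and 13 of 22 (0.591). For both genes the 3 intervals overlapped. *Ifi208* gave 35 of 84 (0.417), 37 of 79 (0.468) and 7 of 23 (0.304), also with overlapping intervals. *Ifi202b*, the gene of a HIN protein without the pyrin domain, gave 47 of 96 (0.490), 34 of 82 (0.415) and 11 of 13 (0.846). The difference between E6.43 and E15.10 at this single SNP had an adjusted p of 0.0872 by Fisher's exact test. *Ifi207* gave 10 of 30, 3 of 22 and 1 of 3. *Ifi203* had 9 SNPs and 9, 1 and 0 counts, so nothing can be said of its alleles at this depth.

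The AI of single genes was compared between libraries with Fisher's exact test on SNPs at least 300 bp apart, adjusted over all autosomal genes tested. Between E6.43 and E6.2, whose stem cells came from the same donor, none of 77 genes of the interval passed an adjusted p of 0.05, against 0.661% of all autosomal genes. Between E6.43 and E15.10 none of 75 passed, against 4.78%. Between E15.10 and E6.2, 2 of 75 passed, against 4.76%. Genes of the 3 immune families were not among them.

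*Arhgap30*, which encodes a GTPase-activating protein, passed with an AI of 0.467 in E15.10 (445 of 952) and 0.541 in E6.2 (631 of 1167), a difference of -0.0733 (SE 0.0218, adjusted p = 0.0257, Fisher's exact test). Of its 24 SNPs with at least 20 counts in both libraries, 20 had the lower AI in E15.10, but neighbouring SNPs share fragments. Over all its SNPs it gave 1355 of 2448 (0.554), 924 of 1777 (0.520) and 996 of 2073 (0.480). Both alleles were well represented in each library.

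*Gm9765*, an unprocessed pseudogene, passed with 0.364 in E15.10 and 0.585 in E6.2, a difference of -0.222 (SE 0.0618, adjusted p = 0.0182, Fisher's exact test). At its first SNP the B6 counts were 118 of 204, 48 of 104 and 32 of 87, at the second 120 of 205, 50 of 106 and 32 of 88, and at the third 119 of 197, 44 of 94 and 29 of 90. The 3 SNPs lie within a single fragment length and are not independent. The surroundings of the third match *Itln1* at 98.6% identity (chr1:171530427-171530570), and a window of *Itln1* matches *Gm9765* at 96.0%. *Itln1*, a secreted lectin gene, leaned to CAST in every library, with 187 of 496 (0.377), 116 of 308 (0.377) and 100 of 303 (0.330). At the *Itln1* SNP shown it was 0.329, 0.304 and 0.310. Both genes were lowest in E15.10, and the difference of *Itln1* between E15.10 and E6.2, -0.0470 (SE 0.0347), had an adjusted p of 0.569 by Fisher's exact test. An exchange of reads between the pair was not tested. With each gene's difference scaled by the robust SD over all autosomal genes in place of the exact test, neither *Arhgap30* (adjusted p = 0.550) nor *Gm9765* (adjusted p = 0.497) passed.

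*Tma7-ps* was the only gene in the LOH range in every library, with 100 of 115 (AI 0.870), 60 of 74 (0.811) and 35 of 39 (0.897). It is a processed pseudogene of *Tma7*, which lies on chromosome 9. At its first 3 SNPs all counts were B6 (32, 19 and 10 at the first, 35, 19 and 13 at the second, 33, 22 and 12 at the third). At its last SNP all counts were CAST (15, 14 and 4). A count of 0 among 33 at the third SNP allows a CAST share of up to 9.09% in E6.2, and among 15 at the last a B6 share of up to 20%. For E6.43 these limits were 13.6% and 21.4%, and for E15.10 they were 25% and 75%, so that the 4 counts at the last SNP bound little there. Each SNP thus gave counts of a single allele, B6 at the first 3 and CAST at the last. The first SNP alone lies inside the annotated pseudogene. The 151 bases around the third SNP are identical to part of *Tma7* (chr9:109078275-109078425), B6 base of the SNP included, and further copies of at least 95% identity lie elsewhere in the genome, 8 in all for the third SNP and 6 for the last. The part of these copies in the single-allele counts was not tested.

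Outside the 3 families, *Arhgap30* and *Atp1a4* were among the genes with the most counts. *Atp1a4*, a sodium pump subunit of sperm, gave 1219 of 2277 (0.535), 883 of 1705 (0.518) and 987 of 1930 (0.511). Its intervals overlapped. The 10 olfactory receptor genes and pseudogenes with counts had a summed AI of 0.501, 0.501 and 0.503. Among them *Olfr1408*, named after its values were seen, gave 510 of 1013 (0.503), 289 of 614 (0.471) and 64 of 181 (0.354).

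Coverage of the *Ifi200* family was much lower in E15.10 than in the other libraries. The share of all autosomal counts that fell in the interval was nearly the same in the 3 libraries, 1.01 times that of E6.2 in E6.43 and 1.00 times in E15.10. The *Ifi200* family held 2830, 1885 and 396 counts. Its share in E15.10 was 0.249 times that in E6.2 (interval 0.224 to 0.277), while in E6.43 it was 0.994 times (0.938 to 1.05). Both alleles were lower, with 0.271 times the B6 share and 0.225 times the CAST share. With SNPs in repeated windows left out, which was decided after looking at the values, the ratio for E15.10 was 0.377 over 17 SNPs.

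The other groups of the interval moved in either direction in E15.10. The share of the olfactory receptors was 0.348 times that in E6.2, that of the pentraxins 0.543 times, that of the SLAM family 0.769 times and that of the Fc receptors 1.04 times, and that of the neighbouring genes was 1.32 times. In E6.43 all these ratios lay between 0.813 and 1.07. Of the single genes with at least 50 counts in E6.2, *Ifi211* had 1003 counts in E6.2 and 120 in E15.10, a ratio of shares of 0.213, and *Mndal* 1388 and 179, a ratio of 0.229. Over 21222 autosomal genes the median ratio was 0.942, and 90% lay between 0.258 and 2.24. Of the 6 *Ifi200* genes, 3 were under the lower of these limits, and the median of the 6 was 0.294. The olfactory receptors were alike, with 3 of 10 genes under that limit and a median of 0.302.

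The ratio followed position and base composition, and both varied together. From *Fcrlb* to *Itln1* (chr1:170907535-171534797) the E15.10 share was 1.33 times that in E6.2, from *Cd244a* to *Slamf6* 0.757 times, from *Vangl2* to *Dusp23* 1.46 times, from *Crp* to *Cadm3* 0.560 times and from *Aim2* to *Olfr419* (chr1:173350945-174250951) 0.313 times. These stretches were drawn after the values were seen. Their GC content over 100 kb was 46.6%, 43.5%, 46.8%, 39.8% and 38.3%. Over 73 genes the Spearman correlation of the GC content around the SNPs with the E15.10 ratio was 0.719, and with the E6.43 ratio it was 0.391, given as a description of genes that share libraries and neighbourhoods.

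Autosomal SNPs with like base composition gave a baseline. Over all autosomal SNPs, those of the interval included, GC content was first matched within 75 bases of the SNP. The E15.10 ratio was then 0.872 for the composition of the *Ifi200* SNPs, well above the measured 0.249. With GC content matched both there and over 100 kb, among SNPs outside the interval, it was 0.328 for the *Ifi200* family and 0.331 for the olfactory receptors. The measured ratios were 0.249 and 0.348. For the SLAM family it was 0.813 beside 0.769, for the Fc receptors 1.11 beside 1.04, and for the stretch from *Aim2* to *Olfr419* 0.348 beside 0.313. Measured ratios lay above this baseline for the neighbouring genes (1.32, baseline 1.13). They also did from *Vangl2* to *Dusp23* (1.46, baseline 1.27) and from *Crp* to *Cadm3* (0.560, baseline 0.469). The copy number of the genes of the interval was not measured separately from their coverage. Because coverage of the *Ifi200* family in E15.10 was low on both alleles, its AI values there rest on few counts.

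**Figure D5:**
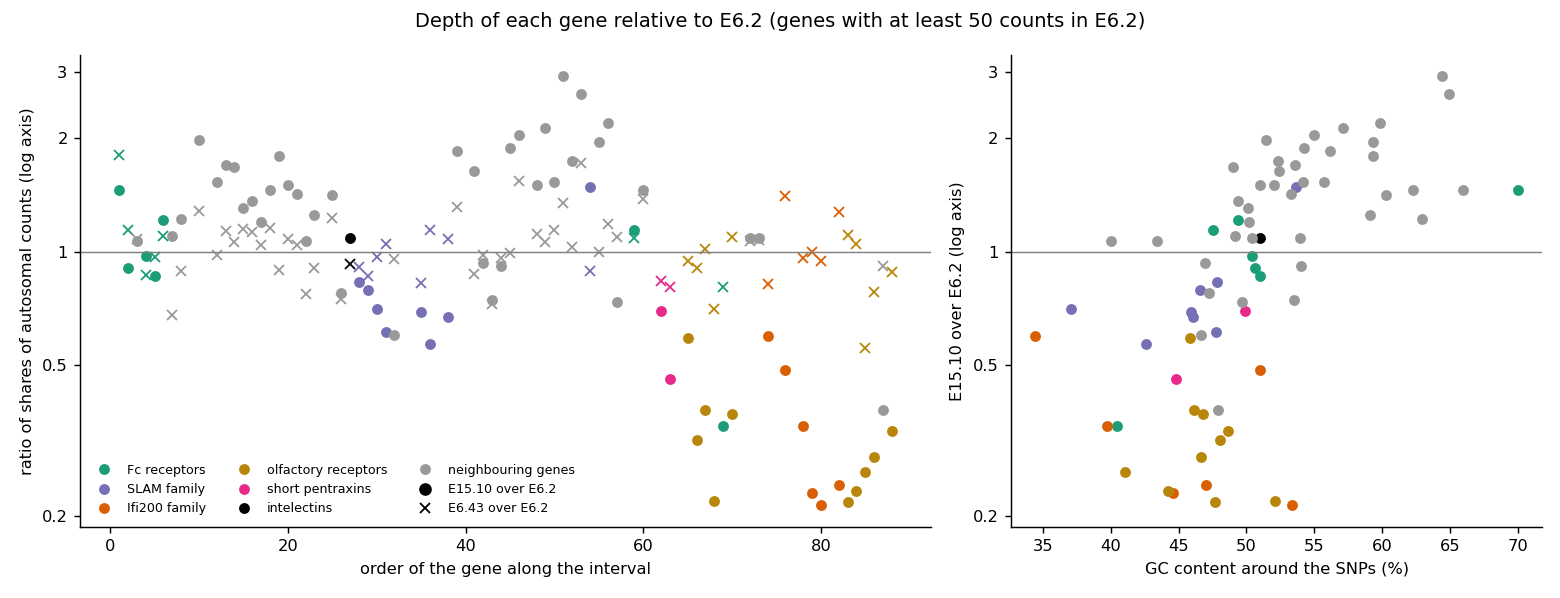
Share of autosomal counts of each gene relative to E6.2 on a log axis, for genes with at least 50 counts in E6.2, by chromosome order (left; dots E15.10, crosses E6.43) and, for E15.10, by GC content around the SNPs in percent (right). The E15.10 dots fall below 0.6 for all plotted *Ifi200* and olfactory receptor genes at the distal end, where the E6.43 crosses stay closer to 1.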

How the data were processed

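Exome DNA of 3 libraries was captured with the Agilent SureSelect Mouse All ExonV6 kit. Per the labels' processing notes, the authors used cutadapt 1.14, Trim Galore, STAR 2.5.4a, SAMtools and GATK with build GRCm38 (mm10). Treatment of duplicates and of reads with several alignments in the exome libraries was not given in the sources used here. The deposited files give raw allelic counts per gene and, for each SNP, lists of B6 and CAST counts (a further kind of value, joined by commas). A deposited table gives AI as a fraction, with its counts, for genes with at least 90 counts. Depth was 19471576 (E6.2), 13036005 (E6.43) and 10863972 (E15.10) allelic counts. Gene counts equalled the sums of their SNPs in all 30212 genes, and 0 positions were listed more than once.

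From these counts AI, Wilson intervals and Fisher's exact tests (two-sided, genes with at least 10 counts in both libraries, SNPs at least 300 bp apart, Benjamini-Hochberg adjustment over all autosomal genes, 3 pairs of libraries) were computed with Python 3.11.15, pandas 2.3.3 and scipy 1.17.1, and tested on simulated data. PCR reads without molecular identifiers are not independent molecules, so intervals cover counting error only, and a limit for a count of 0 was set at 3 counts. Genes were named and SNPs placed with GENCODE vM21, and 1 gene ID had no name there. Copies were searched with megablast (BLAST 2.17.0) in GRCm38.p6. The depth of a group was its share of autosomal counts. GC bins had a width of 5 percentage points around the SNP and 2 over 100 kb.

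Every measured gene of the Fc receptor, SLAM and *Ifi200* lists was named, with other genes in the LOH range with at least 50 counts, called with an AI difference of at least 0.1, or among the 3 with the most counts, of which 1 is not reported here. The interval, gene lists and tests were chosen with earlier results of these data known. Alternatives are given in the closing section. Protein sequences were not analysed here.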

Additional observations from a re-analysis of the deposited data

Results flagged for a closer look

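The AI of *Arhgap30* differed between E15.10 and E6.2 by -0.0733 and that of *Gm9765* by -0.222 (Fisher's exact test, adjusted p of 0.0257 and 0.0182, 1 library each), which is why both are given here. The difference of *Arhgap30* had the same direction at 20 of its 24 well covered SNPs, but neighbouring SNPs share fragments and are not independent. That of *Gm9765* rests on 3 SNPs within a single fragment length, and part of its sequence recurs in *Itln1* at 98.6% identity. The part of that copy in the difference was not tested. With differences scaled by the robust SD in place of the exact test, neither *Arhgap30* (adjusted p = 0.550) nor *Gm9765* (adjusted p = 0.497) passed.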

How the results depend on the processing

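No paired analysis was possible because there was 1 library per group. No replicate was left out, for the same reason. The number of genes of the interval in the LOH range (1 in E6.2, 3 in E6.43, 3 in E15.10) included genes with few counts. With a minimum of 50 counts it was 1 for E6.43 but 0 for E15.10. With a minimum of 90 counts it was 0 for either. From the deposited AI table it was also 0 for either. With limits of 0.4 and 0.6 it was 9, 11 and 16, and with limits of 0.3 and 0.7 it was 2 in E6.2. By the median AI of SNPs with at least 20 counts it was 0 in E15.10. Without SNPs in repeated windows, chosen after seeing the data, it was 0 in E6.2. The other settings left each count within 1.5 times, spaced SNPs and AI centred on the library median among them.

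The number of genes that differed between libraries rose when all SNPs of a gene were summed, although neighbouring SNPs share fragments, to 9 for E6.43 against E6.2, 11 for E15.10 against E6.2 and 10 for E6.43 against E15.10. These were 11.7%, 14.7% and 13.3% of the genes tested, against 13.8%, 18.8% and 18.7% of all autosomal genes in the same setting. The family genes among them were *Fcrla*, *Cd244a* and *Mndal* in the first pair, *Fcgr2b*, *Fcgr3* and *Fcrl6* in the second, and *Fcrla*, *Fcgr3*, *Cd244a*, *Slamf6*, *Fcer1a* and *Ifi202b* in the third. With z scaled by its robust SD, the count for E15.10 against E6.2 was 0. With the exact test and an AI difference of at least 0.1 it was 1. The cause of these changes was not tested.

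The number of SNPs lacking an allele in every library was 3 in place of 0 with a minimum of 10 counts, all in *Tma7-ps*.

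The share of the interval in E15.10 over E6.2 was 1.02 with spaced SNPs, 0.970 with SNPs of AI from 0.4 to 0.6 in every library and 1.06 without repeated windows, against 1.00, and in E6.43 it was 0.993 with spaced SNPs. For the Fc receptors spaced SNPs gave 0.999 in E15.10 and 1.03 in E6.43. For the SLAM family in E15.10, SNPs of AI from 0.4 to 0.6 gave 0.665. For the *Ifi200* family in E15.10, spaced SNPs gave 0.283, SNPs of AI from 0.4 to 0.6 gave 0.205 over 9 SNPs and SNPs outside repeated windows 0.377. Each of these ratios stayed on the same side of 1 except that of the interval and of the Fc receptors. Depth limits the *Ifi200* values of E15.10, where each gene had 179 counts or fewer.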
